A study of Rattus norvegicus with 8 samples.

Results

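The microglial transcripts described here come from 9 genes, C1qa, C1qb, Tyrobp, Cd68, Ctss, Aif1, Cx3cr1, Csf1r and Itgam, measured in RNA from pools of laser-captured rat hippocampal neurons. They were selected by gene name with earlier results of these same arrays known, so their values are given as a description, with no test. The array carries 13 probes for them, among 23400 probes with a gene name, and they are 9 of 18413 named genes. Each of the 9 genes had a probe, and every probe is described.

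The study asked how neurons that die after a brain injury differ from neighbouring neurons that survive it. Male Sprague-Dawley rats received a moderate fluid percussion injury, a pressure pulse to the brain, or a sham injury, or had no treatment (naive), and their brains were frozen 24 h later. Neurons of the hippocampal CA3 subfield were captured by laser, with neurons of injured rats sorted by Fluoro-Jade, a stain of degenerating neurons, into positive (called dying) and negative (called surviving). RNA of each pool was amplified and hybridized to a 1-colour Agilent rat array, 2 arrays for each of the 4 groups. Each array therefore stands for a pool of neurons from several rats, not for an animal, and the labels give no age. Surviving neurons were taken next to dying ones, and whether dying and surviving pools of the same number hold neurons of the same rats is not given in the sources used here.

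Microglia are the resident macrophages of the brain. They make the complement starter C1q, sense neurons through receptors such as Cx3cr1 and Csf1r, pass signals of several surface receptors through the adaptor Tyrobp, and digest engulfed material in lysosomes that hold Cd68 and cathepsin S. After injury to the hippocampus microglia are known to gather at degenerating neurons and to engulf them.

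Signal was read per probe as the processed signal of the scanner files divided by the median of its array, and levels are given as log2 of that ratio, so that 0 is the level of the median probe. Median signal before scaling was 27.2 and 22.7 on the naive arrays, 16.5 and 16.4 on the sham arrays, 52.2 and 48.2 on the surviving arrays and 19.2 and 52.6 on the dying arrays, replicate 1 first here and throughout. Between 20193 and 29347 of 41012 probes per array were well above background, a mark the scanner software gives to each spot. Levels, folds and orders of groups are under this median scaling unless another is named; 6 other scalings were tried, among them normexp, a background correction that adds an offset of 50 to the signals. The number of arrays limits the precision of every value.

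The 4 injured arrays shared 1 slide and the 4 control arrays another, read with different versions of the extraction protocol, so slide and injury cannot be told apart in any comparison with sham. Dying and surviving arrays were on the same slide. The labels name 2 amplification kits as alternatives without saying which pool had which, while the paper's methods name 1 of them (MessageAMP II). Dying replicate 1 stood apart from dying replicate 2: its log2 level of Grik4, a kainate receptor subunit of CA3 neurons, was -1.06 against 4.97, and that of the neurofilament gene Nefl was 1.0 against 6.01. For the members and for several lists, counts and medians are therefore also given with 1 dying array left out. In pools such as these, fewer cells of a type and less RNA per cell cannot be told apart.

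The label of the pools was checked against marker genes. Of 17 pyramidal neuron genes with a probe, between 14 and 15 were well above background on each array, and the brightest of them, the synaptic protein gene Nrgn, read 12.18 and 12.70 in naive, 13.07 and 12.92 in sham, 12.37 and 12.43 in surviving pools, and 11.53 and 11.51 in dying pools. Pyramidal transcripts were thus present on all 8 arrays, and lowest on the dying arrays for this gene. Among markers of resting microglia, the transmembrane protein gene Tmem119 was well above background on 0 of 8 arrays, while the purine receptor gene P2ry12 was above it on all 8, at 2.03 and 2.71 in naive, 1.84 and 3.05 in sham, 0.89 and 2.47 in surviving pools, and 4.16 and 1.98 in dying pools. P2ry12 levels overlapped between all groups. The microglial name of the 9 genes therefore rests on where they are known to be expressed and not on Tmem119 in these pools.

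C1qa encodes the A chain of C1q, the recognition protein that starts the classical complement cascade. On its probe with the highest mean level, C1qa read 5.86 and 6.97 in naive, 6.89 and 6.76 in sham, 6.74 and 6.99 in surviving pools, and 8.88 and 8.55 in dying pools. Both dying pools lay above all 6 other pools, and the surviving pools overlapped the sham and naive pools. Mean levels were 6.86 ± 0.18 in surviving and 8.71 ± 0.23 in dying pools (SD, n = 2), a 3.60-fold higher mean in dying than in surviving pools (1.85 on the log2 scale, and 0.26 with normexp). A further C1qa probe for the same transcript read 4.09 and 5.50 in naive, 5.09 and 4.87 in sham, 5.0 and 5.37 in surviving pools, and 6.65 and 6.69 in dying pools, again with both dying pools highest, at 2.80-fold the surviving mean.

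C1qb encodes the B chain of the same protein and was read by 1 probe. Its log2 level was 4.98 and 6.07 in naive, 6.34 and 6.06 in sham, 6.57 and 7.03 in surviving pools, and 9.82 and 8.78 in dying pools. The order of the groups was dying, then surviving, then sham, with no overlap between neighbours in that order, while sham and naive pools overlapped. The mean in dying pools was 5.67-fold that in surviving pools (2.50 on the log2 scale, and 0.66 with normexp), and the mean in surviving pools was 1.51-fold that in sham pools (0.60, and 0.41 to 1.57 under the other scalings). C1qb and C1qa lie side by side with C1qc in the rat genome (GRCr8, chromosome 5), and their products assemble into 1 protein.

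Promoters are shown for the members marked above background throughout, with both dying arrays above both surviving arrays, and that have an entry in the RefSeq promoter table (build GRCr8), because these genes were higher in dying than in surviving pools. Capitals mark GAGGAA or its reverse complement TTCCTC, the core letters bound by PU.1, a transcription factor of macrophages and microglia. Each run holds 300 bases, 250 before the gene's start and 50 after it, on the strand of the gene. The C1qa promoter (chr5:154419884-154420183, minus strand) holds 0 copies and the C1qb promoter (chr5:154407778-154408077, minus strand) holds 2.
C1qa: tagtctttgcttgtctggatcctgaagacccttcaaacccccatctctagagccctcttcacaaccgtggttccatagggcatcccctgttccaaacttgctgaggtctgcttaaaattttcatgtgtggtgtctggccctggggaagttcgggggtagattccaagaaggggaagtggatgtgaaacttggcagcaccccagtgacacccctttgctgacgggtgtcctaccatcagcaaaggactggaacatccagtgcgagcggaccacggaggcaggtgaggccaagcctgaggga
C1qb: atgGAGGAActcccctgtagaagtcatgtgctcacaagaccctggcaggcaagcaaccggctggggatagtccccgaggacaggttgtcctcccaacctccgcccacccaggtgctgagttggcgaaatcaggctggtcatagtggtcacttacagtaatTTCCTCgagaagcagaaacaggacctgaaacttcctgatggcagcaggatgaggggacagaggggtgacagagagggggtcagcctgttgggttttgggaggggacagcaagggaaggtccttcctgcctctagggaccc

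Tyrobp encodes DAP12, the adaptor through which Trem2 and other microglial receptors signal. Its RefSeq probe read 3.85 and 4.33 in naive, 4.38 and 4.56 in sham, 5.95 and 5.67 in surviving pools, and 8.76 and 7.41 in dying pools. The 4 groups did not overlap and stood in the order dying, surviving, sham, naive. Mean levels were 8.08 ± 0.95 in dying, 5.81 ± 0.19 in surviving and 4.47 ± 0.13 in sham pools (SD, n = 2), so the dying mean was 4.84-fold the surviving mean (2.27 on the log2 scale, and 0.77 with normexp), and the surviving mean 2.52-fold the sham mean (1.34, and 1.15 to 2.43 under the other scalings). The Tyrobp probe designed on an expressed sequence tag read 1.01 and 0.75 in naive, 1.06 and 1.14 in sham, 1.15 and 1.21 in surviving pools, and 3.54 and 1.93 in dying pools. On it the dying pools were again highest, but surviving and sham pools differed by 0.08 in mean level, and the dying replicates by 1.61.

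Cd68 encodes a sialomucin of lysosomal membranes in macrophages. Its log2 level was 0.97 and 1.61 in naive, 2.52 and 2.52 in sham, 4.58 and 4.05 in surviving pools, and 6.77 and 5.48 in dying pools. The groups followed each other without overlap from naive to sham to surviving to dying pools. The dying mean was 3.52-fold the surviving mean (1.82 on the log2 scale, but 0.03 with normexp), and the surviving mean was 3.46-fold the sham mean (1.79, and 1.60 to 2.76 under the other scalings).

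Ctss encodes cathepsin S, a cysteine protease of lysosomes that also trims the invariant chain of MHC class II. Its probe with the highest mean level read 5.14 and 5.99 in naive, 5.90 and 5.33 in sham, 4.05 and 3.25 in surviving pools, and 5.81 and 5.71 in dying pools. Surviving pools were lowest, below every other pool, while dying pools lay within the range of the sham and naive pools. Here the dying mean was 4.32-fold the surviving mean (2.11 on the log2 scale, and 0.39 with normexp), and differed from the sham mean by 0.15 (from -0.64 with normexp to 1.39 with quantile normalization). The additional Ctss probe read 4.80 and 5.69 in naive, 5.53 and 4.85 in sham, 3.39 and 2.13 in surviving pools, and 4.54 and 4.33 in dying pools. It kept surviving pools lowest, and placed both dying pools below both sham pools, by -0.76 in mean level.

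The promoters of these lysosomal genes hold the same letters. Ctss (chr2:185775146-185775445, plus strand) has 1 copy and Cd68 (chr10:54882392-54882691, minus strand) has 2.
Ctss: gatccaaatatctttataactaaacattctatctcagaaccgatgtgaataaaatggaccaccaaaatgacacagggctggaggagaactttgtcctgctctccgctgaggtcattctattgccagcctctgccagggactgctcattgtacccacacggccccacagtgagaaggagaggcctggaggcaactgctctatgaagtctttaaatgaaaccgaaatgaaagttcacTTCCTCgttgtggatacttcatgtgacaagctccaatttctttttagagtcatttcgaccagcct
Cd68: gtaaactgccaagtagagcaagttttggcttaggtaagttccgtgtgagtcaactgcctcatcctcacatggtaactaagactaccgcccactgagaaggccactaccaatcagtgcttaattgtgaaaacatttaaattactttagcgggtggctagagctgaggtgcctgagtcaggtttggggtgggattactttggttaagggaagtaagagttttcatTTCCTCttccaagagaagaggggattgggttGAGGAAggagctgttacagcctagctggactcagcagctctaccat

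Of the 9 members, 7 matched an entry of the promoter table, and 5 of these 7 held the motif on either strand: C1qb, Cd68, Csf1r and Itgam with 2 copies each and Ctss with 1. C1qa and Cx3cr1 held 0 copies, and Tyrobp and Aif1 had no entry. Of 33469 promoters of the same length in the table, 27.6% held it. A match of letters is a description and not a binding site, and binding was not measured.

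Aif1 encodes Iba1, an actin-binding protein used as a stain for microglia. It read 4.17 and 5.08 in naive, 5.0 and 5.05 in sham, 3.63 and 3.25 in surviving pools, and 5.14 and 4.64 in dying pools. As for Ctss, the surviving pools were the lowest of all, and the dying pools overlapped the sham and naive pools. The dying mean was 2.73-fold the surviving mean under median scaling and lower than it with normexp (-0.27 on the log2 scale), and the surviving mean was lower than the sham mean by a factor of 3.01 (-1.59 on the log2 scale, and -1.78 to -0.55 under the other scalings).

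The receptors gave lower signal. Cx3cr1, the receptor for neuronal fractalkine, was well above background on 3 of 8 arrays, both surviving arrays and dying replicate 2. Its levels were -2.74 and -2.75 in naive, -1.71 and -0.53 in sham, -0.69 and -1.33 in surviving pools, and -3.32 and -0.51 in dying pools. The lowest and the highest pool of all 8 were the dying replicates, so no order of the injured groups can be read from it. Where a probe was not well above background on either array of a group, a fold is given as a bound (at least N-fold), computed against the probe's own level in that group or, if higher, the dimmest level that still earned the mark.

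Itgam encodes CD11b, the alpha chain of complement receptor 3, and was well above background on the 4 injured arrays and on none of the 4 control arrays. It read -2.70 and -2.72 in naive, -0.16 and -0.56 in sham, 1.40 and -0.07 in surviving pools, and 0.27 and 2.24 in dying pools. Dying and surviving pools overlapped, and all 4 injured pools lay above the 4 control pools. The bound was at least 2.65-fold higher in dying than in sham pools, and at least 1.76-fold higher in surviving than in sham pools.

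Csf1r encodes the receptor for the growth factors that keep microglia alive. Its RefSeq probe was well above background on all 8 arrays, at 1.18 and 1.14 in naive, 2.31 and 1.41 in sham, 1.90 and 0.74 in surviving pools, and 1.18 and 1.86 in dying pools. Sham, surviving and dying pools overlapped one another, and naive pools were below sham pools. The other Csf1r probe was above background on 3 arrays, the same as for Cx3cr1, and read -2.81 and -2.83 in naive, -2.36 and -2.14 in sham, -0.04 and -0.58 in surviving pools, and -1.68 and -0.30 in dying pools. On it dying and surviving pools overlapped as well.

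**Figure D1:**
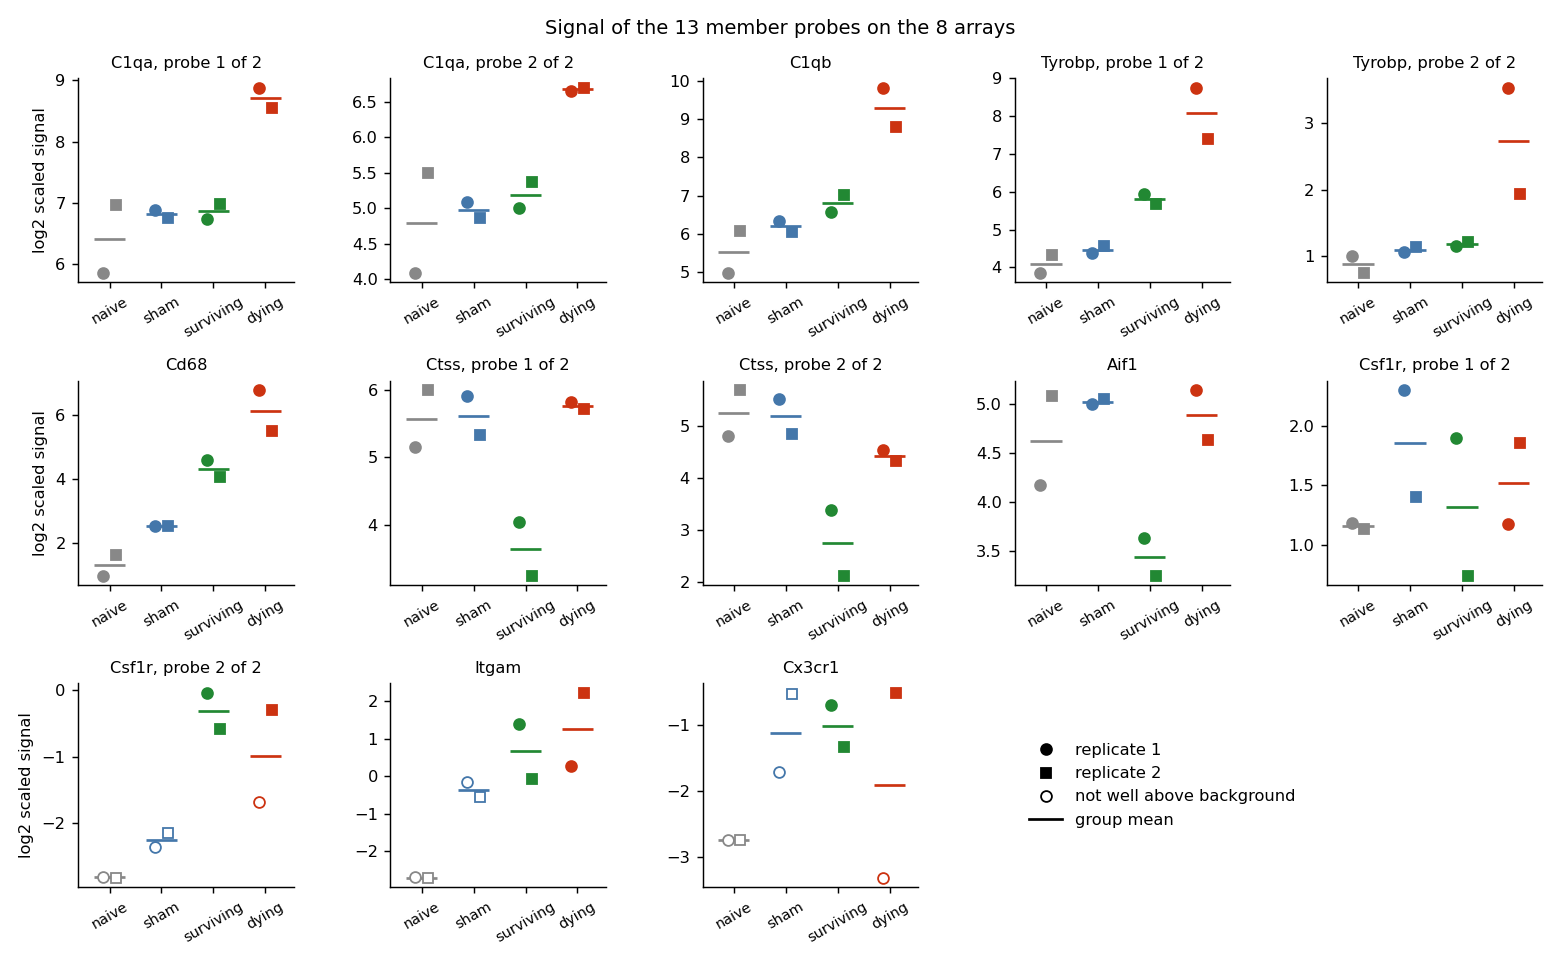
Log2 scaled signal (vertical axis) of each of the 13 member probes in naive, sham, surviving and dying pools; circles are replicate 1, squares replicate 2, lines group means, and hollow marks arrays where the probe was not well above background. Both dying pools are above both surviving pools for the probes of C1qa, C1qb, Tyrobp, Cd68, Ctss and Aif1 under this scaling, and dying and surviving pools overlap for Csf1r, Itgam and Cx3cr1.

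Taking for each gene the probe of highest mean level, dying pools had a higher mean than surviving pools for 8 of 9 members and a lower mean for Cx3cr1, where 44.3% of named genes had a higher mean in dying pools (with normexp 7 members were higher and 2 lower). The differences ran from -0.90 for Cx3cr1, not above background on dying replicate 1, to 2.50 for C1qb on the log2 scale, with a median of 1.81 (0.26 with normexp), beside a median of -0.14 over the 27393 probes tested. In 6 of the 9, C1qa, C1qb, Tyrobp, Cd68, Ctss and Aif1, both dying arrays were above both surviving arrays, as they were in 12.9% of 17859 named genes; the members were chosen on these arrays and nothing is read from their share. With dying replicate 1 left out, 9 of 9 were higher in the remaining dying pool than the surviving mean, with a median difference of 1.57, and Tyrobp moved from 2.27 to 1.60. With dying replicate 2 left out, 6 were higher and 3 lower, with a median of 2.01, and Itgam moved to -0.40 and Csf1r to -0.14; the third, Cx3cr1, was not above background on the array left, and its difference is not given.

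Across all probes limma called 0 of 27393 (0.0%) between dying and surviving pools at an adjusted p under 0.05. The smallest adjusted p was 0.0899, and an unadjusted p under 0.05 was reached by 5640 probes. When dying replicate 2 was left out the count became 5408, a value that rests on the lone replicate 1.

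Relative to sham pools, dying pools had a higher mean for 6 of 9 members and a lower mean for 3, among them Cx3cr1, not above background in sham pools. Higher means were found in 31.9% of named genes. Under the other scalings between 6 and 9 members were higher, 9 of 9 in the authors' table and with scaling on probes above background, and 8 without dying replicate 1 and 7 without dying replicate 2. C1qb, Tyrobp and Cd68 had the largest differences, 3.10, 3.61 and 3.61 on the log2 scale, followed by C1qa at 1.89, while Ctss at 0.15, Aif1 at -0.14 and Csf1r at -0.34 moved across sham with the scaling, as given below. Both dying arrays were above both sham arrays for 5 of 9, C1qa, C1qb, Tyrobp, Cd68 and Itgam, as in 19.6% of named genes, and for 5 to 7 under the other scalings. The members' median of 1.61, beside -0.46 for the 25628 probes tested, is the value of Itgam, whose level in sham pools was not above background. Over the 7 members above background on all 8 arrays the median was 1.89, from 1.66 to 3.02 under the other scalings. The median of the 9 was 0.63, again that of Itgam, without dying replicate 2 and 1.73 without dying replicate 1.

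Surviving pools differed from sham pools in both directions. Cd68 at 1.79, Tyrobp at 1.34 and C1qb at 0.60 were higher, as was Itgam, for which only the bound of at least 1.76-fold can be given, with both surviving arrays above both sham arrays for these 4 of 9 members, as in 22.1% of named genes (2 to 6 members under the other scalings). Ctss at -1.97 and Aif1 at -1.59 were lower, with both surviving arrays below both sham arrays for these 2 of 9, as in 51.2% of named genes. A higher mean in surviving than sham pools was found in 33.0% of named genes. The median of 0.10, beside -0.43 for the 26909 probes tested, is the value of Cx3cr1, not above background in sham pools. Over the 7 members above background on all 8 arrays it was 0.04, from -0.15 to 1.40 under the other scalings. The dying against sham, surviving against sham and dying against surviving comparisons share arrays, so their values are set side by side and not counted as separate evidence.

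Between sham and naive pools Cx3cr1 and Itgam were above background in neither group and are not compared. Of the other 7 members, 7 had a higher mean in sham pools, by 0.05 for Ctss to 1.23 for Cd68, where 79.2% of named genes did (3 of 7 with quantile normalization or scaling on probes above background). Both sham arrays were above both naive arrays for 3 of the 7, as in 46.9% of named genes. The median of the 7 was 0.41 beside 0.37 for the 20679 probes tested. Of those probes limma called 0 (0.0%), with a smallest adjusted p of 0.193 and 789 at an unadjusted p under 0.05. Naive replicate 1 was the lowest of the 8 arrays for both C1qa probes and C1qb.

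**Figure D2:**
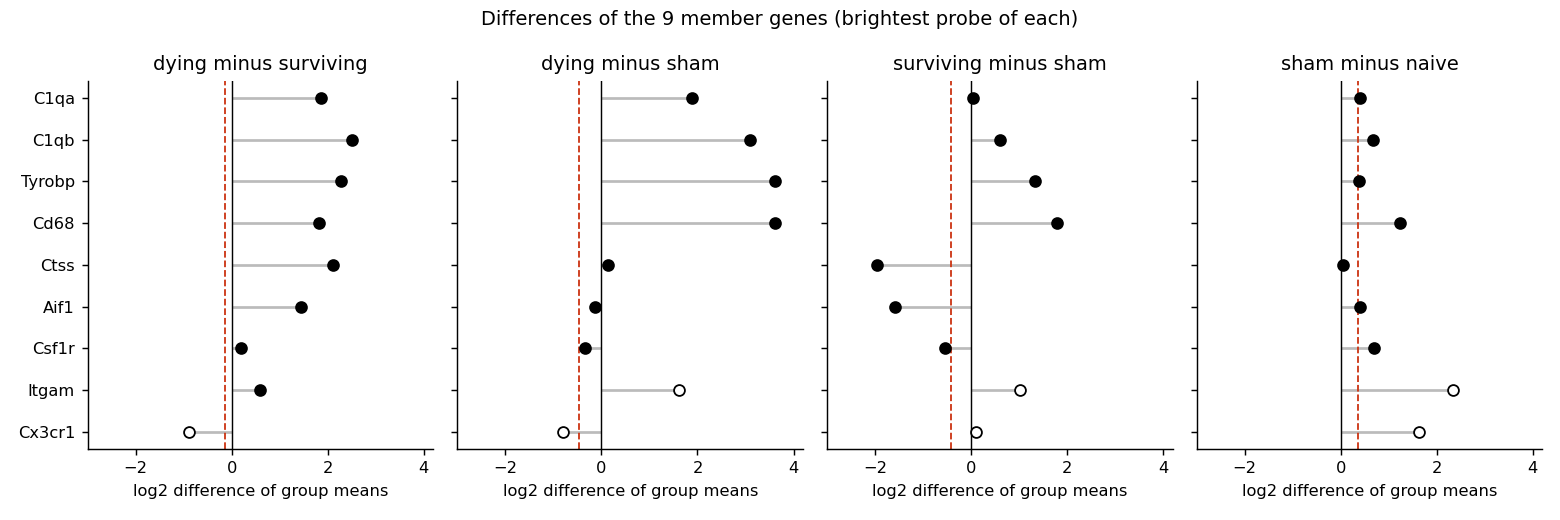
Log2 difference of group means (horizontal axis) for the 9 member genes, on the probe of highest mean level, in 4 comparisons; hollow marks are probes not well above background on every array of both groups, and the dashed line is the median of all probes tested. C1qa, C1qb, Tyrobp and Cd68 are higher in dying pools than in both surviving and sham pools, and Ctss and Aif1 are lower in surviving than in sham pools.

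The scaling of the arrays was changed in 6 ways, of which 4 divide each array by a constant and 2, quantile normalization and normexp, do not. Of those 4, the authors' table also has a floor, between 0.024 and 0.055 by array. In it the dying minus sham difference moved from -0.80 to 0.70 for the dim Cx3cr1 and from 1.89 to 2.69 for C1qa. With the scaling the median of all tested probes moved from -0.46 to between -0.30 and 0.55 for dying against sham, from -0.43 to between -0.61 and 0.55 for surviving against sham, from -0.14 to between -0.36 and 0.20 for dying against surviving, and from 0.37 to between -0.05 and 0.57 for sham against naive. Relative to that median, the members stood 1.96 higher in dying than surviving pools, 2.07 higher in dying than sham and 0.53 higher in surviving than sham under median scaling. With normexp these became 0.62, 1.23 and 0.47, and with quantile normalization 2.09, 1.53 and 0.76. C1qa, C1qb, Tyrobp, Cd68, Ctss and Itgam were higher in dying than surviving pools under all 7 scalings. With normexp the differences shrank, to 0.26 for C1qa, 0.66 for C1qb and 0.03 for Cd68, turned to -0.27 for Aif1, -0.21 for Csf1r and 0.24 for Cx3cr1, and left 1 of 9 members without overlap where the other scalings left 6.

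Against sham, C1qa, C1qb, Tyrobp, Cd68 and Itgam were higher in dying pools under all 7 scalings. Ctss, at 0.15, ran from -0.64 with normexp to 1.39 with quantile normalization, Aif1, at -0.14, from -1.10 to 1.07 in the same settings, and Csf1r, at -0.34, reached 0.67 with scaling on probes above background. Lower Ctss and Aif1 in surviving than in sham pools held under all 7 scalings, from -2.16 to -0.93 for Ctss and from -1.78 to -0.55 for Aif1. In the same comparison C1qa ran from -0.15 when arrays were scaled on RefSeq probes to 1.40 with normexp, and Csf1r changed sign with the scaling. Between sham and naive pools C1qa, Tyrobp, Aif1 and Ctss lay at 0.41, 0.39, 0.40 and 0.05 and each turned negative under at least 1 scaling, to -0.02, -0.03, -0.02 and -0.37 at the lowest.

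**Figure D3:**
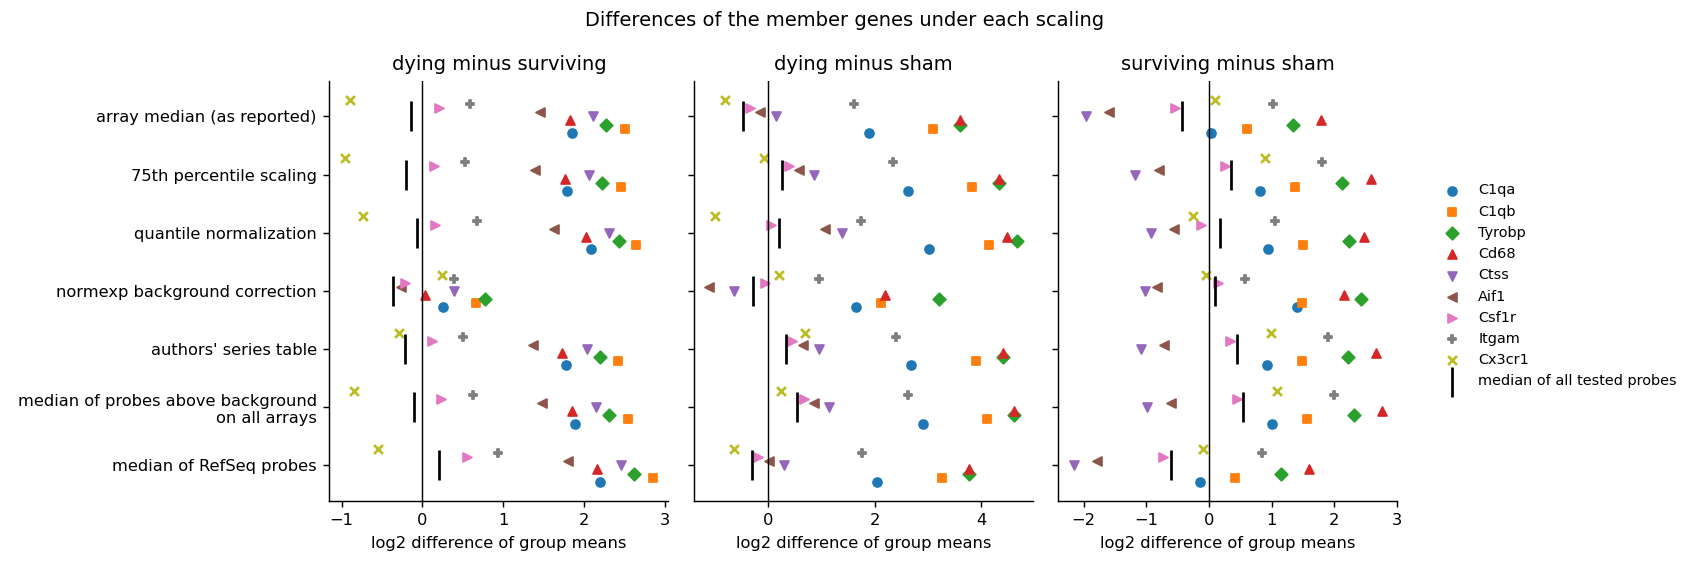
Log2 difference of group means (horizontal axis) for the 9 member genes under 7 scalings (rows), with a black bar for the median of all probes tested. The spacing of the members changes little between scalings that divide each array by a constant, except for Cx3cr1 in the authors' table, which also has a floor. It shrinks with normexp in dying minus surviving.

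The members did not share a single profile over the 8 arrays. Likeness was measured as the root-mean-square distance between profiles of log2 level, each centred on its own mean. Ctss and Aif1 were 0.36 apart, with Aif1 ranked 3 of 12221 genes in closeness to Ctss and Ctss ranked 40 in closeness to Aif1. C1qb and Tyrobp were 0.39 apart, at rank 6 for C1qb and rank 8 for Tyrobp, and Cd68 had Tyrobp at rank 21. The nearest other member ranked 137 for C1qa and 3565 for Csf1r. Itgam and Cx3cr1 were not above background on 4 and 5 arrays, and their distances are not given. By level, C1qa, C1qb, Tyrobp and Cd68 were highest in dying pools, Ctss and Aif1 lowest in surviving pools, and Csf1r followed neither order.

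By a rule set beforehand, the genes closest to the mean profile of the 9 members are named. Among 14715 probes these were Ccn1 at a distance of 0.21, Runx1 at 0.22, Tnip2 at 0.24, and Mapkapk2 and Iqgap1 at 0.25 each. The mean takes in Itgam and Cx3cr1, so levels not above background enter it. Ccn1 encodes a secreted matrix protein, Runx1 a transcription factor of blood lineages, and Mapkapk2 a stress kinase. The distances describe 8 arrays and say nothing of shared control.

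Other microglial genes were counted from lists, likewise drawn up with earlier results known, using 1 probe a gene. A count of genes that rose or fell by limma is followed in parentheses, where it moves, by its range over the other scalings except normexp, with which 0 list genes passed the threshold. Of 10 homeostatic receptors and enzymes with a probe, 7 were tested and 3 rose in dying pools relative to sham by limma (3481 of 25628 probes rose, 13.6%, and 6975 fell, 27.2%). Of the 10 means, 4 were higher and 6 lower in dying than sham pools (median -0.23, and 5 higher and 5 lower without either dying array), where 31.9% of named genes were higher. In surviving relative to sham pools 2 were higher and 8 lower (median -0.70), where 33.0% of named genes were higher. Both counts rose to 8 higher with scaling on probes above background. Trem2, the lipid receptor that pairs with Tyrobp, rose by 3.51 ± 0.68 (SE, n = 2 against 2, adjusted p = 0.00766), from 4.92 and 4.88 in sham to 9.21 and 7.62 in dying pools. The nucleotide receptor P2ry6 rose by 2.89 ± 0.75 (adjusted p = 0.0194) and the fructose transporter Slc2a5 by 2.04 ± 0.65 (adjusted p = 0.0379), each with both dying arrays above both sham arrays. Between dying and surviving pools Trem2 differed by 2.58 (adjusted p = 0.137) and Slc2a5 by 3.19 (adjusted p = 0.122), and neither passed the threshold.

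Complement and Fc receptor genes were higher in dying than sham pools for 9 of 10. Of the 10 tested, 7 rose (7 to 9), where 13.6% of all probes tested did. C1qc, the remaining chain of C1q, rose by 2.38 ± 0.58 (adjusted p = 0.0158), from 2.48 and 2.45 in sham to 5.30 and 4.39 in dying pools. The C5a receptor gene C5ar1, not above background in controls, was at least 17.6-fold higher in dying than sham pools (adjusted p = 0.00187) and at least 4.25-fold higher in surviving than sham pools (adjusted p = 0.0206). Here and below, an adjusted p beside a bound comes from the levels as read, not from the bound. Such a gene was tested only through the group where it was higher. In surviving pools 2 of the 10 rose (2 to 6), C5ar1 and the C3a receptor C3ar1 (adjusted p = 0.0362), where 1555 of 26909 probes rose (5.78%) and 2833 fell (10.5%). Between dying and surviving pools 8 of 10 were higher in dying pools, with a median of 1.06. Without dying replicate 1 it was 10, without dying replicate 2 it was 8, and with normexp 4 were higher and 6 lower.

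Myeloid signalling and cytoskeletal genes numbered 23, of which 16 were tested and 9 rose in dying pools relative to sham (9 to 12, with 1 that fell under quantile normalization). Of all probes tested 13.6% rose there. The NADPH oxidase subunit Cyba rose by 3.46 ± 0.80 (adjusted p = 0.0134). Spi1, the gene of PU.1, was well above background on 5 of 8 arrays and lay at 0.12 (adjusted p = 0.909). In surviving pools 1 of 18 tested rose against sham (1 to 6), where 5.78% of all probes tested did. It was the kinase gene Fgr, at least 2.32-fold (adjusted p = 0.0194).

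Genes of phagocytic and activated microglia numbered 23, of which 19 were tested in dying and 19 in surviving pools against sham. In dying pools 12 rose (12 to 15) and 2 fell, where 13.6% of all probes tested rose and 27.2% fell. The glycoprotein gene Gpnmb rose by 3.38 ± 0.46 (adjusted p = 0.00305), from 1.88 and 1.82 in sham to 5.06 and 5.41 in dying pools, and by 1.93 ± 0.46 in surviving pools (adjusted p = 0.0311). The cytokine gene Il1b was at least 8.39-fold higher in dying than sham pools (adjusted p = 0.00335), and the chemokine gene Ccl3 at least 13.02-fold (adjusted p = 0.00896). Lpl, a lipase that neurons also express, fell by 3.91 (adjusted p = 0.00387), and Cd9, a tetraspanin, fell by 3.05 (adjusted p = 0.00682). In surviving pools 6 rose (3 to 9) and 2 fell (0 to 2), where 5.78% of all probes tested rose and 10.5% fell. The 2 were the same genes, with log2 differences of -2.69 for Lpl and -2.20 for Cd9. The pattern-recognition receptor Tlr2 had the largest difference between dying and surviving pools in this list, 2.89 (adjusted p = 0.108).

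MHC class II genes and the invariant chain were higher in dying than surviving pools for 7 of 7, 5 of them tested, where 44.3% of named genes were, and for 4 of 7 with normexp, 6 with quantile normalization or scaling on probes above background, 5 without dying replicate 1 and 7 without dying replicate 2. The invariant chain gene Cd74, which also stands in the list of partners, rose by 3.59 ± 1.22 against sham (adjusted p = 0.0468), from 1.81 and 3.08 in sham to 6.22 and 5.85 in dying pools. It was the 1 past the threshold in that comparison (1 to 4) among 5 tested, where 13.6% of all probes tested rose.

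Partners of the members include neuronal ligands that restrain microglia. Cd200, which signals to a microglial receptor, fell by 4.01 in dying pools (adjusted p = 0.00238), from 7.78 and 7.16 in sham to 3.42 and 3.50, and by 3.01 in surviving pools (adjusted p = 0.0119). Cd47, the signal against engulfment, fell by 3.40 in both dying (adjusted p = 0.00343) and surviving pools (adjusted p = 0.00724). Cx3cl1, the ligand of Cx3cr1, read 11.66 and 11.50 in sham and 11.62 and 11.60 in surviving pools, and 10.46 in dying replicate 2, with no usable spot on dying replicate 1. Of 14 partners, 12 were tested in dying and 12 in surviving pools against sham. In dying pools 2 rose (2 to 6), Cd74 and the C1 inhibitor Serping1, and 2 fell. In surviving pools 0 rose (0 to 4) and 2 fell. Of all probes tested 13.6% rose and 27.2% fell in dying pools, and 5.78% and 10.5% in surviving pools.

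The calls against sham in these lists and in the lists of other cell types rest on few arrays. Of 70 list genes past the threshold in dying pools, 18 remained past it without sham replicate 1, 24 without sham replicate 2, 40 (with 27 that did not) without dying replicate 1, 62 without dying replicate 2, and 0 with normexp. Of 30 in surviving pools, 0 remained without sham replicate 1 or surviving replicate 1, 1 without sham replicate 2 and 1 without surviving replicate 2. A stricter filter on dim probes tested a gene only if both groups had it well above background on both arrays. With it, 43 of the 70 remained past the threshold and 3 did not, and 13 of the 30 remained and 5 did not. The others, genes given as a bound included, could not be tested. None of these list genes changed direction in these settings.

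**Figure D4:**
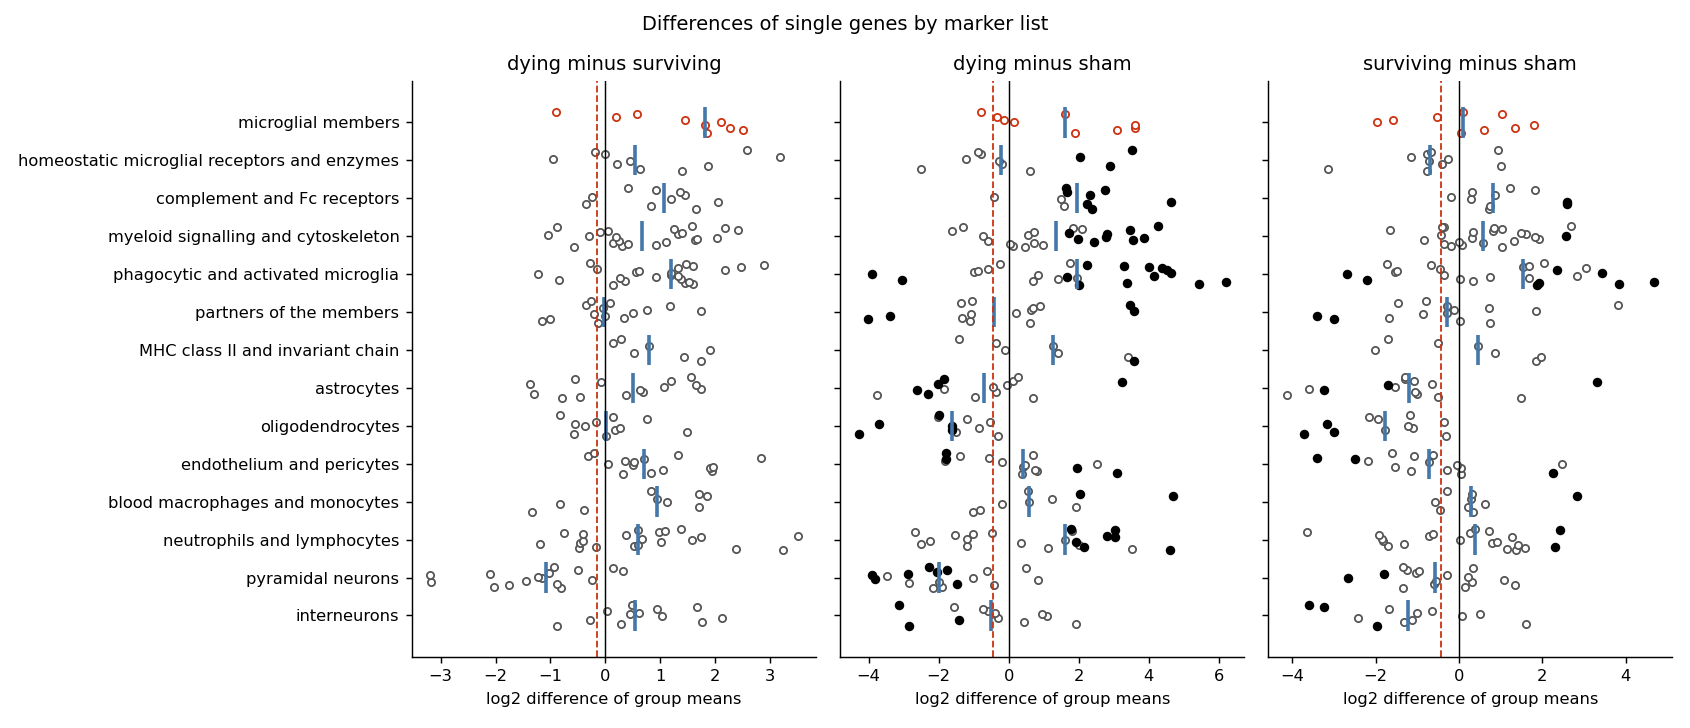
Log2 difference of group means (horizontal axis) of single genes in each list (rows), for 3 comparisons; filled marks have an adjusted p under 0.05 by limma, blue bars are list medians and the dashed line the median of all probes tested, and members (red) carry no test. In dying minus surviving the medians of all lists but that of pyramidal neuron genes lie to the right of the dashed line, those of other cell types included.

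Lists of other cell types also differed between the pools, some in the direction of the members and some not, and their part in the result was not tested. Beside their counts by limma stand the shares of all probes tested. Against sham, 13.6% rose and 27.2% fell in dying pools, and 5.78% rose and 10.5% fell in surviving pools. The 9 members summed to 162 and 316 times the array median in naive, 324 and 282 in sham, 323 and 347 in surviving pools, and 2009 and 1117 in dying pools, with C1qb the brightest on both dying arrays and surviving replicate 2 and C1qa on the other 5. Pyramidal neuron genes, 14 with a value on every array, summed to 11440 and 15560 in naive, 21310 and 18160 in sham, 9898 and 10110 in surviving pools, and 5063 and 5401 in dying pools, with Nrgn the brightest. Their sum was lowest in the dying pools, where that of the members was highest. Of the 17, 16 were tested in dying and 15 in surviving pools against sham. In dying pools 7 fell (5, with 0 to 1 that rose) and in surviving pools 2 (0 to 1, with 0 to 1 that rose). Among them was the synaptic vesicle fusion gene Snap25, by 3.83 (adjusted p = 0.00678) and 2.67 (adjusted p = 0.0419). In dying against surviving pools 14 of the 17 were lower, 2 higher and 1 without a value. Their median was -1.09, and -0.65 without dying replicate 1 and -1.97 without dying replicate 2.

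Astrocyte genes, 14 in all, summed to 4405 and 6205 in naive, 7507 and 4947 in sham, 2490 and 3059 in surviving pools, and 7755 and 3281 in dying pools, with Ndrg2 the brightest. Dying replicate 1 was high and replicate 2 was close to the surviving pools, and of the 14 genes 8 were higher in dying than surviving pools, 7 without dying replicate 1, 8 without dying replicate 2 and 3 with normexp. The stain gene Gfap was above background on all 8 arrays. Against sham, 13 of the 14 were tested. Of these, 1 rose and 4 fell (1 to 3) in dying pools, and 1 rose (0 to 1) and 2 fell (0 to 1) in surviving pools. The falls included the gap junction gene Gja1, by 2.61 (adjusted p = 0.018) and 3.23 (adjusted p = 0.0208).

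Oligodendrocyte genes summed to 1630 and 1584 in naive, 2532 and 2427 in sham, 454 and 491 in surviving pools, and 347 and 430 in dying pools over 10 genes. Both injured groups lay below the control pools. Of the 11 with a probe, 10 were tested against sham, and 5 fell in dying pools (2 to 3) and 3 in surviving pools (2 to 3).

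Endothelial and pericyte genes summed to 151 and 183 in naive, 218 and 196 in sham, 108 and 100 in surviving pools, and 436 and 174 in dying pools over 14 genes, with Vwf the brightest on both surviving arrays and dying replicate 2 and Pdgfrb on dying replicate 1. They were higher in dying than surviving pools for 13 of 15, for 9 without dying replicate 1, for 13 without dying replicate 2 and for 7 with normexp. Of the 15, 13 were above background on each dying array, 14 and 11 on the surviving arrays, and 10 or 11 on the control arrays. Among them the defining genes Pecam1 and Tie1 were above background on 2 of 8 arrays each and Tek on 0. In each comparison with sham 12 were tested. Vwf rose in dying pools against sham by 1.94 (adjusted p = 0.0237), 1 of 2 that rose (2 to 4), beside 2 that fell (0). In surviving pools 1 rose (0 to 1) and 2 fell (1 to 2).

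Interneuron genes summed to 1860 and 2602 in naive, 2348 and 2529 in sham, 2487 and 2610 in surviving pools, and 7146 and 2048 in dying pools, with Cck the brightest. Only dying replicate 1 was high, and 10 of 12 were higher in dying than surviving pools with both arrays, 6 of 12 without replicate 1, 9 of 12 without replicate 2 and 5 of 12 with normexp. Of the 12, 11 were tested against sham. Of these, 0 rose (0 to 3) and 3 fell (2) in dying pools, and 0 rose and 3 fell (1 to 3) in surviving pools.

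Blood macrophage and monocyte genes gave small sums, 8.27 and 7.88 in naive, 8.31 and 7.49 in sham, 16.7 and 7.80 in surviving pools, and 27.7 and 33.1 in dying pools over 9 genes, with Pf4 the brightest on 7 of 8 arrays. Of the 9, 2 to 4 were above background on the control arrays, 6 and 6 in surviving pools, and 4 and 7 in dying pools. Among them the defining gene Cd163 was above background on 0 of 8 arrays and Ccr2 on 2. The monocyte antigen gene Ly6c was at least 7.18-fold higher in dying than sham pools (adjusted p = 0.0019) and at least 1.99-fold higher in surviving pools (adjusted p = 0.0176), and Adgre1, which encodes the macrophage antigen F4/80 and is found in microglia too, rose in dying pools by 2.04 (adjusted p = 0.0164). These 2 were the genes that rose in dying pools (2 to 3), where 3 of the 9 were tested. Ly6c was the 1 that rose in surviving pools (1 to 2), where 4 were tested.

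Neutrophil, lymphocyte and red cell genes summed to 26.0 and 20.6 in naive, 20.9 and 20.2 in sham, 37.8 and 33.0 in surviving pools, and 94.8 and 66.6 in dying pools over 21 genes, with Cd3d the brightest on 6 of 8 arrays. Against sham, 10 of the 21 were tested in dying pools and 7 rose (7 to 10), and 9 were tested in surviving pools and 2 rose (2 to 6). The neutrophil gene S100a8 was at least 10.6-fold higher in dying than sham pools (adjusted p = 0.0032), and the haemoglobin gene Hbb rose by 1.78 (adjusted p = 0.0279). Of the 21, 8 and 5 were above background in naive, 4 and 3 in sham, 10 and 13 in surviving pools, and 10 and 13 in dying pools. Among them Cd4, Cd2 and Mmp8 were above background on 0 of 8 arrays.

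The sums of the remaining lists did not all follow the members. Homeostatic genes summed to 126 and 236 in naive, 175 and 181 in sham, 166 and 164 in surviving pools, and 807 and 394 in dying pools, with Trem2 the brightest on both dying arrays. Of the dying sums, Trem2 gave 590.2 and 197.3 and P2ry6 gave 90.26 and 74.92. Of the 10 homeostatic genes, 6 had a lower mean in dying than sham pools. Complement and Fc receptor genes summed to 160 and 256 in naive, 376 and 233 in sham, 384 and 399 in surviving pools, and 1236 and 775 in dying pools, with Fcgr3a the brightest. The sums of these 2 lists were highest in the dying pools, whereas the myeloid signalling list, led by Coro1a, which neurons also express, summed to 1109 and 1905 in naive, 2029 and 1443 in sham, 1359 and 1287 in surviving pools, and 1358 and 1348 in dying pools. Phagocytic genes, led by Apoe, summed to 3140 and 4824 in naive, 4413 and 2894 in sham, 2923 and 2967 in surviving pools, and 9696 and 4682 in dying pools. MHC class II genes, led by RT1-DMa, summed to 317 and 470 in naive, 517 and 493 in sham, 377 and 390 in surviving pools, and 555 and 419 in dying pools, and partners, over 12 genes that leave out Cx3cl1, to 3430 and 4815, 6351 and 4816, 4040 and 3333, and 5784 and 3331. In all 3, dying replicate 2 lay below at least 1 control array.

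**Figure D5:**
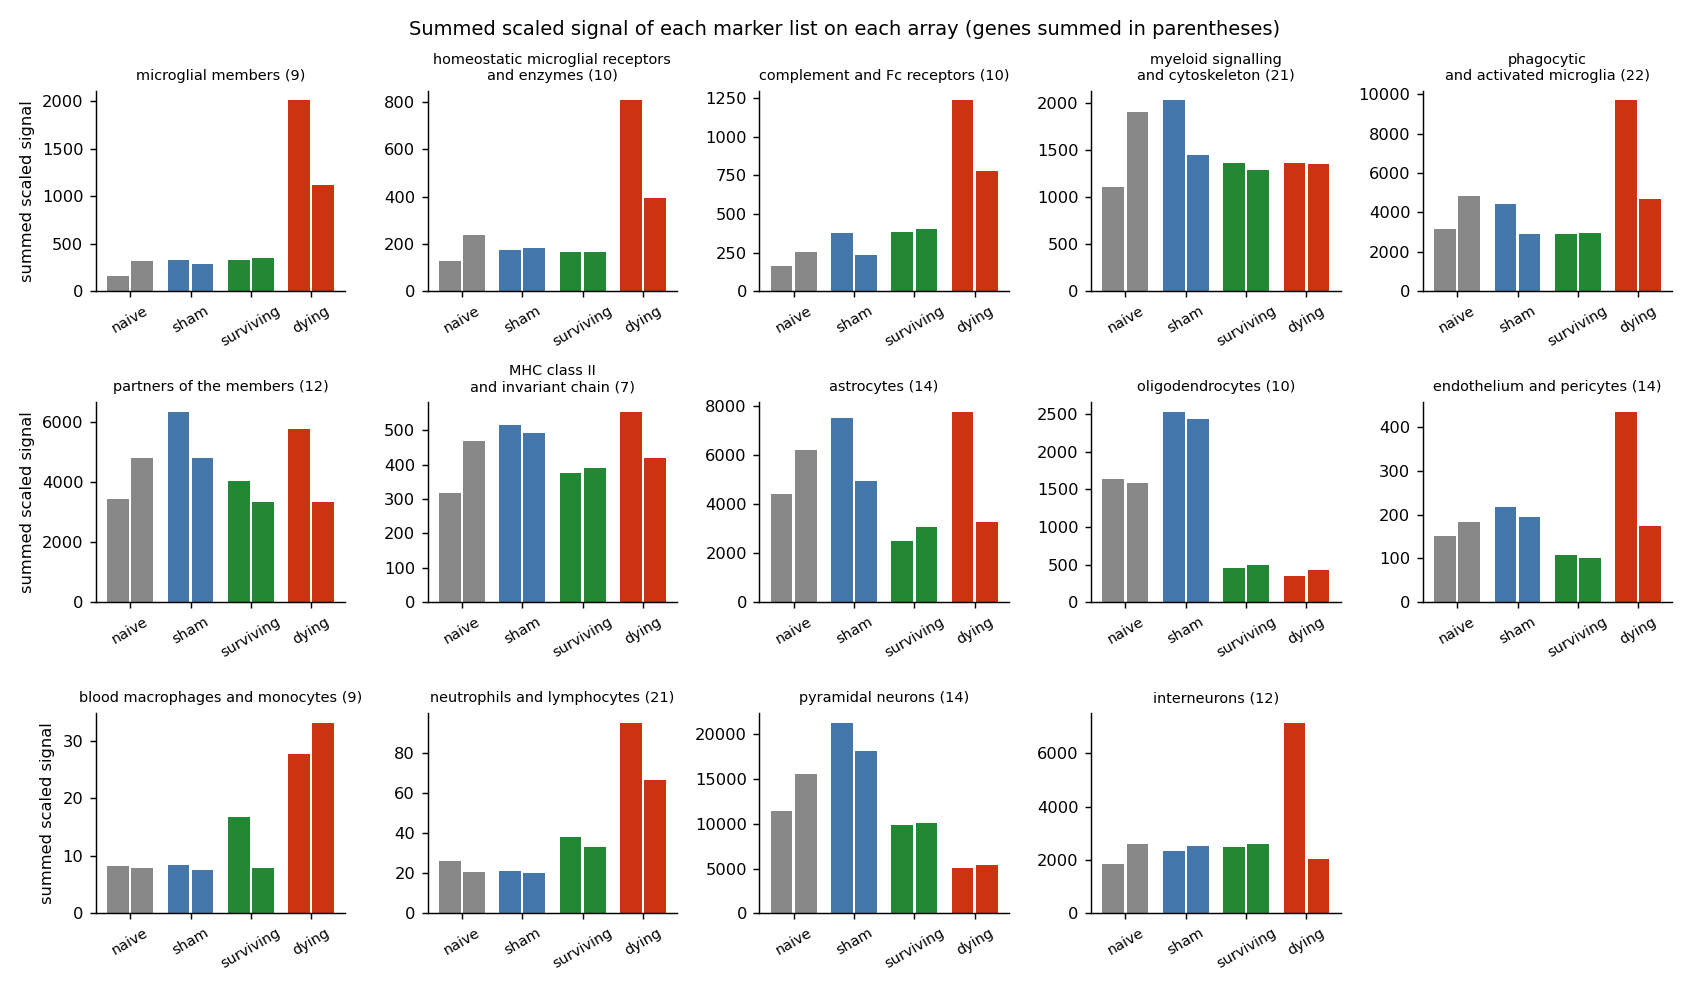
Summed scaled signal (vertical axis, multiples of the array median) of each list on each array, with replicate 1 on the left of each pair, over genes measured on each of the 8. The sums of the members, homeostatic genes, complement and Fc receptors, blood macrophage genes and neutrophil and lymphocyte genes are highest on both dying arrays, those of astrocyte, endothelial and interneuron genes on dying replicate 1, and that of pyramidal neuron genes is lowest on the dying arrays. Of the homeostatic sums there, Trem2 gives 590.2 and 197.3 and P2ry6 90.26 and 74.92, and 6 of the 10 genes have a lower mean in dying than sham pools.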

How the data were processed

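RNA of 8 pools of laser-captured neurons was amplified, labelled and hybridized by the authors to 1-colour rat arrays of 45018 spots. Per the labels, either of 2 amplification kits was used, with no kit given by pool; the paper's methods name only MessageAMP II. The deposited scanner files give an intensity per spot, which per the file headers is background-subtracted and detrended within the array and not scaled between arrays, and, as other columns, 0 or 1 marks that flag spots as well above background or as non-uniform. The deposited series table gives a signal that the authors divided by a constant per array, with a floor between 0.024 and 0.055 by array, as checked on the files. Spots marked non-uniform (6 to 734 per array) were left out, spots of a probe averaged, divided by the array median, held at a floor of 0.01 and taken to log2.

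limma 3.58.1 in R 4.3.3 fitted the means of 4 groups, with 4 residual degrees of freedom, to all probes. A probe was tested if either group compared had it well above background on both of its arrays, with Benjamini-Hochberg adjustment over all probes tested and a two-sided threshold of 0.05. The fit was tested on simulated data with known changes planted in the dying arrays, no slide effect and every probe counted as above background. That test does not reach the filter on dim probes or shifts between whole arrays. Since each single gene has 2 arrays a group, limma's pooled spread stands behind every adjusted p.

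The members and lists were chosen with earlier results of these data known. A gene was represented by its probe of highest mean level. Named genes of the lists were taken from those past the threshold, the 3 with the largest difference between dying and surviving pools and the 3 brightest among genes tested in that contrast, and markers of pyramidal neurons, astrocytes, oligodendrocytes and endothelium. Tmem119, P2ry12, Spi1, Cd163, Ccr2, Cx3cl1, Cd4, Cd2 and Mmp8, where outside that rule, were named as defining markers or partners after their values were seen. Sums over a list take genes with a value on every array. Single values of some list genes are not reported here; counts, medians and sums of the lists include them.

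Alternatives were 75th percentile scaling, quantile normalization, normexp correction with an offset of 50, the authors' table, non-uniform spots kept, a floor of 0.05, no filter or a stricter filter on dim probes, only the groups compared, a replicate block, other choices of probe and each array left out in turn. Scaling on probes above background on all arrays, scaling on RefSeq probes and a crossed pairing were chosen after seeing the data.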

Additional observations from a re-analysis of the deposited data

How the results depend on the processing

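The number of members with both dying arrays above both surviving arrays was 6 under every scaling but normexp background correction, and the members' median difference between dying and surviving pools lay between 1.55 (without surviving replicate 2) and 2.01 (without dying replicate 2) when each array was left out in turn. With normexp it was 0.26. Of 13 member probes, 207 values under the alternatives moved by less than the spread between replicates and 27 by more. The 207 include settings that cannot change this difference of means: only the groups compared, a replicate block, and a naive or sham array left out. By more than the spread moved 11 of the 13 probes with normexp, 6 without dying replicate 1 and 6 without dying replicate 2. Without surviving replicate 1 or without surviving replicate 2 it was 2 each.

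For dying against sham, the members' median of 1.61 became 2.34 with 75th percentile scaling, 2.41 in the authors' table, 2.62 with scaling on probes above background on all arrays (chosen after seeing the data) and 0.96 with normexp, and it ran from 0.63 (without dying replicate 2) to 1.81 (without sham replicate 1). For surviving against sham, the median of 0.10 became 0.89, 0.99, 1.08 and 0.57 in the same settings, 0.94 with quantile normalization, 0.60 with the mean over all probes of a gene and -0.086 with scaling on RefSeq probes (chosen after seeing the data), and it ran from 0.10 to 0.46 (without sham replicate 2). For sham against naive, the median of 0.67 became 0.24 with quantile normalization and 0.25 with scaling on probes above background on all arrays, and it ran from 0.15 (without naive replicate 1) to 0.96 (without naive replicate 2). These 3 medians take all 9 members, with Cx3cr1 and Itgam, not above background in sham or naive pools. Over the other 7 the median for sham against naive was 0.41, and -0.01 with quantile normalization or scaling on probes above background on all arrays. The cause was not tested.

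Counts of probes past the limma threshold moved more. Between dying and surviving pools the count of 0 (5640 at an unadjusted p under 0.05) became 2 in the authors' table and ran from 0 to 5408, the latter without dying replicate 2, when 20 of the 65 list genes also passed. For dying against sham the count of 10456 was 0 with normexp and 5536 with the stricter filter, which tests fewer probes, and ran from 1857 (without sham replicate 1), with 3792 without sham replicate 2, to 12794 (without dying replicate 2). For surviving against sham the count of 4388 was 0 with normexp, 1781 with the stricter filter and 10456 with only the groups compared, and ran from 190 (without sham replicate 1), 290 (without surviving replicate 1), 361 (without surviving replicate 2) and 398 (without sham replicate 2) to 7705 (without dying replicate 1 or 2). For sham against naive the count of 0 (789 at an unadjusted p under 0.05) was 1 with quantile normalization and 0 without any array. Where 1 array is left in a group, its spread is assumed to equal that of the rest.

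The scaling set the share of higher calls. In dying against sham 3481 of 10456 were higher, and 6666 of 11073 with 75th percentile scaling, 5201 of 9278 with quantile normalization, 7225 of 11433 in the authors' table and 8191 of 11999 with scaling on probes above background on all arrays. In surviving against sham 1555 of 4388 were higher, and 3861 of 5165, 2374 of 4032, 4349 of 5735 and 5006 of 6400 in those settings, and 945 of 3748 with scaling on RefSeq probes. The cause was not tested.

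Whether same-numbered dying and surviving pools share rats is not given in the sources used here, so the numbers were not taken to pair the samples. The differences between replicates 1 and 2 correlated at -0.19 between surviving and dying pools over 15254 probes. With a replicate block the counts were 0 for dying against surviving, 9276 for dying against sham, 2707 for surviving against sham and 0 for sham against naive. Crossing the dying replicates, chosen after seeing the data, gave counts of 0, 9804, 3067 and 0.

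Single genes of the lists changed sign between dying and surviving pools, among them the following. With normexp the difference was -0.24 for Fcgr3a, -0.37 for C3, -0.43 for Irf5, -0.24 for Apoe, -1.04 for Cd63, -1.63 for Lgals3, -0.03 for C1s, -1.20 for Cst3, -0.077 for RT1-Bb, -1.27 for RT1-DMa, -0.57 for RT1-Db1, -0.058 for Gjb6, -0.34 for Ndrg2, -0.81 for Slc1a3, -0.23 for Pdgfrb, -0.35 for Cd3d, -0.69 for Mmp9, -0.007 for Reln, -1.07 for Cck and -0.56 for Npy. With scaling on RefSeq probes it was 0.34 for Rgs10, 0.11 for Fcgr2a, 0.052 for Coro1a, 0.13 for Sirpa and 0.076 for Pvalb, with quantile normalization 0.21 for Rgs10 and 0.019 for Pvalb, and with scaling on probes above background on all arrays 0.029 for Rgs10. Leaving out 1 array gave -0.73 to 0.72 for Rgs10, -0.84 to 0.36 for Fcgr2a, -0.042 to 1.03 for Cst3, -0.55 to 0.12 for Sirpa, -0.074 to 0.35 for RT1-DMa, -0.24 to 3.74 for Gjb6, -0.13 to 2.79 for Pdgfrb, -0.22 to 1.40 for Mmp9, -0.15 to 3.67 for Sst and -0.42 to 1.32 for Cck. No list gene past the threshold against sham changed direction under any alternative run. The cause was not tested.

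Signal over background limits what can be said of Cx3cr1, Itgam and the dimmer Csf1r probe, which were not well above background on 4 or 5 of the 8 arrays, and of Tmem119, not detectable on these arrays. With 2 pools a group, and with slide and injury confounded, differences from sham cannot be assigned to injury.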
